A study of Mus musculus with 278 samples.

Results

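The cell cycle was followed through 50 genes in mammary epithelial cells of FVB/NJ mice, each sequenced alone. They were listed by name as regulators of entry into S phase (9 genes, Ccnd1, Ccnd2, Ccnd3, Ccne1, Ccne2, Cdk2, Cdk4, Cdk6 and E2f1), inhibitors of cyclin-dependent kinases (4 genes, Cdkn1a, Cdkn1b, Cdkn1c and Cdkn2c), S phase genes (13), G2/M genes (22), and Hmgb2 and Stmn1, which are high in dividing cells. All 50 were found among 27179 gene identifiers and passed the filter on low values (1 CPM in 3 or more cells, where CPM is the reads of a gene scaled to a common total per cell or group). That filter was met by 15312 genes. The cells were captured on the Fluidigm C1 system, which isolates each cell in its own chamber, and each library is 1 cell. Adult glands gave 112 cells sorted as basal, the outer contractile layer, and 43 sorted as luminal, the inner layer that faces the duct. Glands at mid-pregnancy gave 123 cells of the total epithelium, with both layers together. No agent was given in any group, and the sort removed cells with blood, endothelial and red cell surface markers (Lin–). The labels name no animal or capture, so each group counts as 1 sample. No test was run between groups, and no difference has a replicate check.

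A cell that enters division first raises D cyclins (Ccnd1, Ccnd2, Ccnd3), which activate Cdk4 and Cdk6. These kinases, joined by cyclin E with Cdk2, release E2F factors that turn on the genes of DNA replication, such as the Mcm helicase subunits, the clamp Pcna and the nucleotide enzymes Rrm1, Rrm2 and Tyms. Later, Cdk1 with cyclins A2, B1 and B2 drives the cell into mitosis, where Aurora and Polo kinases, kinesins, centromere proteins and the spindle checkpoint act. Cdkn1a (p21), Cdkn1b (p27), Cdkn1c (p57) and Cdkn2c (p18) hold the kinases back. In the mammary gland, cyclin D1 is known for its need in alveolar growth, and the epithelium expands in pregnancy.

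The E2F and CHR letters around the start sites differed in frequency between S phase and G2/M genes. Promoters of 300 bases (250 before to 50 after the start, RefSeq, GRCm38.p6) were matched for 39 of the 50 genes. Searched on both strands were an E2F motif (TTTCCCGC, TTTCGCGC, TTTGCCGC or TTTGGCGC), the cell cycle homology region or CHR (TTTGAA or TTCGAA), and CCAAT. The 6 promoters below are shown because they span the patterns found, from S phase (Mcm5, Mcm6) over both kinds (Cdk1) to G2/M (Ccnb2, Plk1) and a regulator with no match (Cdk4). They lie at chr8:75109259-75109558 (Mcm5, + strand), chr1:128359656-128359955 (Mcm6, - strand), chr10:69352863-69353162 (Cdk1, - strand), chr9:70421505-70421804 (Ccnb2, - strand), chr7:122159185-122159484 (Plk1, + strand) and chr10:127063285-127063584 (Cdk4, + strand). Each is printed 5′ to 3′ on the strand of its gene, and capitals mark the matches.
Mcm5: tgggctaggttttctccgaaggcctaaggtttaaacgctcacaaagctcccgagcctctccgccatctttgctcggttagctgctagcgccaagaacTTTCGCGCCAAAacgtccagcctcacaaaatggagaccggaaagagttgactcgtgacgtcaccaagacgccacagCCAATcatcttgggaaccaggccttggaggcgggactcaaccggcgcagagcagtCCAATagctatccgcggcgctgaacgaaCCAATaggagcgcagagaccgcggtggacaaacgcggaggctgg
Mcm6: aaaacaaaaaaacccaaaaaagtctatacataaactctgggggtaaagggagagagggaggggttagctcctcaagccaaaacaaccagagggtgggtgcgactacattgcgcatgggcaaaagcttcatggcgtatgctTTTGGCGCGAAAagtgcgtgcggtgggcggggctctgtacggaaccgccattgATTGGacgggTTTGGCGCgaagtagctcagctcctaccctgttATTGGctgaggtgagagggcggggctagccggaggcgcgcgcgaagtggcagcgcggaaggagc
Cdk1: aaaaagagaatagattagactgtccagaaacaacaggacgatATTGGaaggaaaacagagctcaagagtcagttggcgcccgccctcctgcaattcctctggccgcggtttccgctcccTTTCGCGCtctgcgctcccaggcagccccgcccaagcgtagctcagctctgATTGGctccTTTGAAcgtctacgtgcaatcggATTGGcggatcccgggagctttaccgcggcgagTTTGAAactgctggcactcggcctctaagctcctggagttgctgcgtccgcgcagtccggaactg
Ccnb2: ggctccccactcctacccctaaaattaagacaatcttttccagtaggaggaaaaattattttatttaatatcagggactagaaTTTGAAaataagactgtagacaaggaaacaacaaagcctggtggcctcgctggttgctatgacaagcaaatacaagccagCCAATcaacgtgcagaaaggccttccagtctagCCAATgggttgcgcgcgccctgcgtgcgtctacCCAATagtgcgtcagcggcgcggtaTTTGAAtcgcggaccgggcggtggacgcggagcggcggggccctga
Plk1: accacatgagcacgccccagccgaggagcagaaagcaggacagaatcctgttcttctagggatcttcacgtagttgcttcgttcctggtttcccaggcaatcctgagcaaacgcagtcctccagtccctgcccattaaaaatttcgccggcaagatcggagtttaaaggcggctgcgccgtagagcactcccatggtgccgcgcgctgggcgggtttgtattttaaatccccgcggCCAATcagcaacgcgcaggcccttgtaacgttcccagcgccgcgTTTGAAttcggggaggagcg
Cdk4: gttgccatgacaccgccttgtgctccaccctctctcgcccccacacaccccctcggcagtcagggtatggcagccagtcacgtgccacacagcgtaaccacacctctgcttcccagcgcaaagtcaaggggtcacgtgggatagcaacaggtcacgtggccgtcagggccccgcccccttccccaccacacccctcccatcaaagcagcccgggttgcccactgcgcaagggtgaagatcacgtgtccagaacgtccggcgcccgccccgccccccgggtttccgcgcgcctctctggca
In Mcm5 and in Mcm6 E2F letters overlapped on the 2 strands and form 1 run of capitals. Mcm6 has a further E2F match apart from that run. The E2F motif was present in 5 of 11 S phase promoters (45.5%), which were Mcm3, Mcm5, Mcm6, Mcm7 and Uhrf1, in 1 of 18 G2/M promoters (Cdk1), in 1 of 6 G1/S regulators (Cdk2) and in 2.6% of all 27025 promoters in the table. The CHR was present in 14 of 18 G2/M promoters (77.8%), in 2 of 11 S phase promoters (Mcm2 and Mcm7), in 0 of 6 G1/S regulators and in 21.7% of all promoters. CCAAT was frequent in both, in 16 of 18 G2/M and 9 of 11 S phase promoters, against 41.1% of all. CHR and CCAAT stood together in 14 of 18 G2/M promoters and in 9.65% of all. Nusap1 and Birc5 were the G2/M genes with none of the 3 motifs. A match says only that the letters are there, and promoters of Ccnd1, Ccnd2, Ccna2, Aurkb, Tpx2, Kif20a, Mcm4, Gins2, Ccne2, Cdkn1c and Stmn1 were not analysed here.

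**Figure D1:**
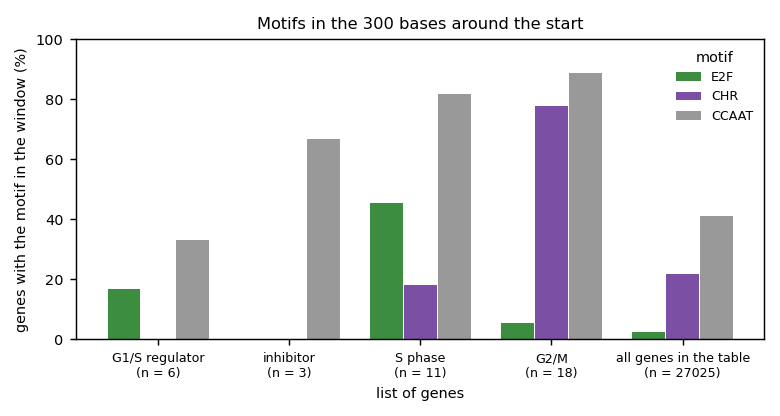
Share of promoters (%, vertical axis) that hold the E2F, CHR or CCAAT letters on either strand, for the G1/S regulators, inhibitors, S phase genes and G2/M genes and for all genes in the promoter table. E2F stands out in S phase genes (45.5%) and CHR in G2/M genes (77.8%).

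Cells with 50000 or more reads in the retained genes were used, which left 85 cells of the 112 sorted as basal, 41 of the 43 sorted as luminal and 96 of the 123 from pregnancy. Reads per cell ranged from 67170 to 1290736 (median 378479) in adult basal, from 173150 to 1006261 (637857) in adult luminal and from 53966 to 790397 (215202) in pregnancy cells. To compare shares of cells, each cell was thinned to 50000 reads, at which the median cell detected 2257 genes in adult basal, 3411 in adult luminal, 3946 in pregnancy cells numbered 1 to 55 in their titles and 2808 in those numbered 56 to 123. The break between cells 55 and 56 was found in the data and the labels do not explain it, so the main pregnancy values are given pooled and within both ranges (45 and 51 cells). Pregnancy cells were assigned to a basal class (52 cells), a luminal class (21), a mixed class (11) or neither (12) by the percent of the study's basal and luminal list genes detected (thresholds 19.6% and 26.7%). A class is a range of a score, and 5 cells lay within 2 points of the basal and 17 within 2 points of the luminal threshold. With thresholds from all retained adult cells (19.6% and 16.9%), the basal, luminal, mixed and neither classes held 35, 30, 28 and 3 cells. The sorts carried their markers. Krt5, Krt14, Acta2, Myh11 and Trp63 summed to 16234 CPM in adult basal and 220 in adult luminal cells, and Krt8, Krt18, Krt19, Cldn4 and Elf5 to 480 and 5888 CPM. At least 3 of these 5 basal markers were read in 49 of 52 basal class and 1 of 21 luminal class cells. At least 3 of the 5 luminal markers were read in 33 of 52 and 20 of 21, beside 7 of 85 adult basal cells. Of the 12 cells of neither class, 9 had 3 or more luminal markers and 4 had 3 or more basal markers. Markers of another cell type (3 or more of the immune, endothelial or fibroblast list) were found in 1 adult basal, 6 adult luminal and 23 pregnancy cells, of which 18 were in cells 1 to 55 and 14 in the basal class there. Milk genes took 22.8% of the reads of pregnancy cells and 1.25% of those of adult luminal cells, and the same reads are missing from all other genes. By class they took 13.4% in the basal, 28.8% in the luminal, 22.8% in the mixed and 42.5% in the neither class. For each of the 50 genes the lowest cell was at 0 CPM in both adult groups and in both pregnancy classes, so these groups overlapped for every gene.

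Cells with an S phase or G2/M programme were few among adult basal cells, more frequent among adult luminal cells and most frequent in 1 of the 2 ranges of pregnancy cells. A cell was counted as S when 5 or more of the 13 S phase genes, and as G2/M when 5 or more of the 22 G2/M genes, had a read at 50000 reads. Of adult basal cells, 7 of 85 were S (8.24%, exact 95% interval 3.38 to 16.2%) and 1 of 85 was G2/M (1.18%, 0.0298 to 6.38%). Of adult luminal cells, 10 of 41 were S (24.4%, 12.4 to 40.3%) and 7 of 41 were G2/M (17.1%, 7.15 to 32.1%). Whether the 2 adult sorts differ in these shares was not tested, since each sort is 1 sample. The median cell also detected fewer genes in adult basal (2257) than in adult luminal cells (3411), and the part of this in the shares was not tested. All intervals here are exact (Clopper-Pearson for shares, Poisson or conditional for counts) and cover counting error only, since PCR reads without molecular identifiers are not independent molecules and cells of the same gland are not independent samples.

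In pregnancy, 31 of 96 cells were S (32.3%, 23.1 to 42.6%) and 27 of 96 were G2/M (28.1%, 19.4 to 38.2%). These pooled shares stood for 2 unlike ranges. Among cells 1 to 55, 27 of 45 were S (60%, 44.3 to 74.3%) and 25 of 45 were G2/M (55.6%, 40.0 to 70.4%). Among cells 56 to 123, 4 of 51 were S (7.84%, 2.18 to 18.9%) and 2 of 51 were G2/M (3.92%, 0.478 to 13.5%). Whether the ranges differ in animal, day or capture is not in the labels, so stage and capture cannot be told apart in any comparison with the adult sorts.

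The split ran through both the basal and the luminal class. In the basal class, 12 of 27 cells numbered 1 to 55 were G2/M (44.4%, 25.5 to 64.7%) against 1 of 25 numbered 56 to 123 (4%, 0.101 to 20.4%). Of those 12 cells, 6 carried markers of another type, and without such cells the counts were 6 of 13 and 1 of 23. In the luminal class the counts were 5 of 9 (55.6%, 21.2 to 86.3%) and 1 of 12 (8.33%, 0.211 to 38.5%), or 4 of 8 and 1 of 10 without such cells. Whether the classes differ in these shares was not tested, since the cells of a class are 1 sample. The mixed class, with genes of both lists, held 7 G2/M cells of 7 in the range 1 to 55 and 0 of 4 in the other, where the interval reaches 60.2%. The neither class held 1 of 12 over both ranges. Genes detected move with these calls: the median was 4477 genes in the 25 G2/M cells of the range 1 to 55 and 3429 in the 16 cells of neither phase there, and 3956 and 3343 in adult luminal cells. Its part in the class and phase calls was not tested.

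**Figure D2:**
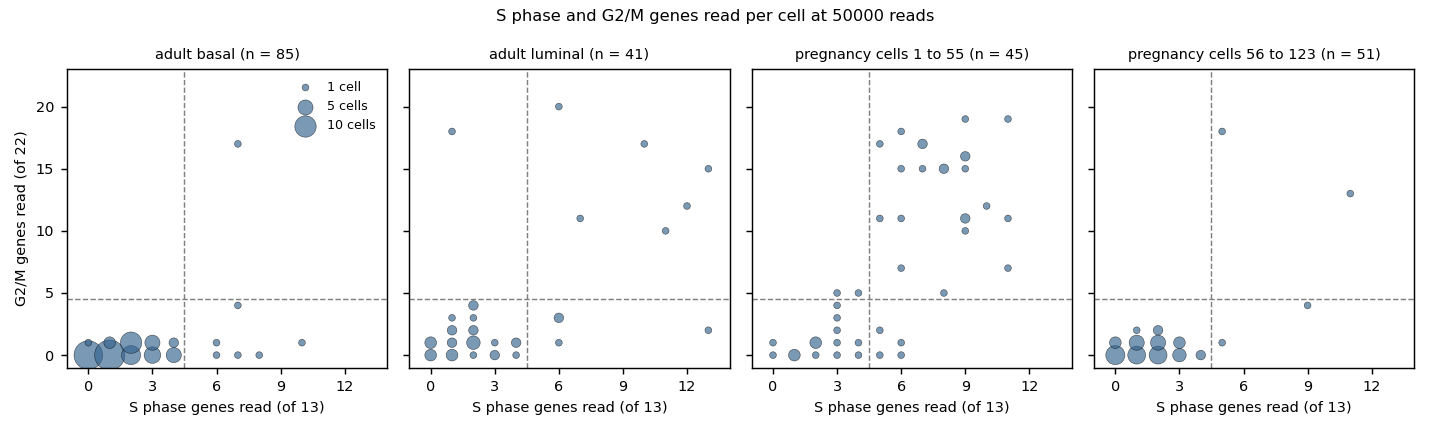
Number of S phase genes (of 13, horizontal axis) and of G2/M genes (of 22, vertical axis) with a read in each cell at 50000 reads, with 1 panel per group or pregnancy range, point area for the number of cells and dashed lines just below 5 genes. Most adult basal cells lie at 0 or 1 G2/M gene with 1 cell at 17, and pregnancy cells 1 to 55 reach up to 19.

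S and G2/M calls mostly fell on the same cells. In adult luminal cells 6 of the 7 G2/M cells were also S and 4 further cells were S only, and in pregnancy 25 of 27 G2/M cells were also S. Adult basal cells differed in this: 6 of their 7 S cells had 4 or fewer G2/M genes, and adult basal cell 36 was the only G2/M cell, with 7 S phase and 17 G2/M genes. Those 6 cells had a median of 2844 genes detected, beside 2076.5 in the 78 adult basal cells of neither phase. The part of genes detected in these S calls was not tested. The distribution was close to all or nothing in adult basal cells, where 83 of 85 had 0 or 1 G2/M gene and 1 had 2 to 4. In adult luminal cells 23 of 41 had 0 or 1, 11 had 2 to 4, and the highest cell had 20 of 22. Few cells lay at the G2/M threshold with 4 or 5 genes (1 adult basal, 2 adult luminal and 5 pregnancy cells), whereas 7, 3 and 11 cells had 4 or 5 S phase genes, so the S shares depend more on that choice. Without the cells that carried markers of another type, the G2/M shares were 1 of 84 adult basal, 6 of 35 adult luminal (17.1%), 16 of 27 pregnancy cells 1 to 55 (59.3%) and 2 of 46 cells 56 to 123 (4.35%). Within the adult luminal sort, 6 of 25 cells with more mature luminal than luminal progenitor markers were G2/M, 1 of 11 cells with more progenitor markers, and 0 of 5 with equal numbers. The intervals were 9.36 to 45.1% and 0.230 to 41.3% for the larger sets, and their difference was not tested.

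The 35 G2/M cells of all groups can be set beside the other 187. The G2/M genes themselves made the call, so their counts only describe how often each is caught in a single cell. Top2a, the topoisomerase that untangles DNA, was read in 33 of 35, Mki67 (Ki-67) in 31, the spindle midzone protein Prc1 in 29 and the mitotic kinase Cdk1 in 28. At the other end were Plk1 (9 of 35), the chromosomal passenger kinase Aurkb (10), Aurka (11) and the APC/C activator Cdc20 (12). Ccnb1, Aurkb and Plk1 were read in none of the 187 other cells, and Cdc20 in 1. The S phase genes did not enter the G2/M call. Rrm2, the regulated subunit of ribonucleotide reductase, was read in 28 of 35 G2/M cells and 8 of 187 others, Uhrf1, which maintains DNA methylation behind the fork, in 29 and 23, and Rrm1 in 30 and 41. Pcna was the S phase gene most often read outside the G2/M cells, in 102 of 187 beside 33 of 35, and Mcm2 was rare in both, with 4 and 6 cells.

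In pregnancy cells 1 to 55 the most frequent D cyclin and inhibitor were at similar summed levels with and without a G2/M call. Ccnd1 was read in 24 of 25 G2/M cells at 409 CPM and in 18 of the 20 other cells at 358 CPM. The p21 gene Cdkn1a was also present in both, in 25 of 25 at 229 CPM and in 15 of 20 at 242 CPM. Other D cyclins and inhibitors differed more between these cells. With and without the call, Ccnd2 was at 417 CPM (17 of 25) and 194 CPM (10 of 20). Ccnd3 was at 15.8 (10 of 25) and 8.60 CPM (2 of 20). The rarer inhibitors Cdkn2c and Cdkn1b were at 21.0 (8 of 25) and 3.31 CPM (1 of 20), and at 16.7 (9 of 25) and 9.26 CPM (7 of 20). Adult luminal cells showed Ccnd1 in 7 of 7 G2/M cells at 820 CPM and in 30 of the 34 other cells at 511 CPM, and Cdk4 in 7 of 7 at 325 CPM and in 25 of 34 at 254 CPM. Cdkn1c was read in 0 of the 7 adult luminal G2/M cells and in 4 of the 34 others. In the range 1 to 55 it was read in 12 of 25 G2/M cells at 136 CPM and in 11 of the 20 others at 184 CPM. Of the cells in that range, 14 of 18 with markers of another type had Cdkn1c, and 9 of the 27 without. Hmgb2 and Stmn1, a chromatin protein and a microtubule regulator, went with the G2/M count: Hmgb2 was read in 22 of 25 against 5 of 20 and Stmn1 in 22 of 25 against 11 of 20 in the range 1 to 55, and in adult luminal cells the counts were 6 of 7 against 15 of 34 and 7 of 7 against 15 of 34.

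The D cyclins differed by lineage. Ccnd1 (7:144929931-144939831, GRCm38.p6) ranged in adult basal cells from 0 to 4675 CPM with a median of 1.78, and was read in 35 of 85 cells. In adult luminal cells it ranged from 0 to 2053 CPM with a median of 382 and was read in 37 of 41. The summed levels, 298 and 580 CPM, differed less than the medians did, because a few adult basal cells were very high (log2 ratio 0.96, 0.92 to 1.00, short of the 2-fold rule used below). Without the cells that carried markers of another type it was past the rule (1.06), and with TMM scaling, which adjusts the totals for differences in composition, it was 0.70. In pregnancy the luminal class had 271 CPM (16 of 21 cells) and the basal class 199 CPM (33 of 52). By range, Ccnd1 was at 531 CPM (9 of 9 cells) and 139 CPM (7 of 12) in the luminal class and at 310 (24 of 27) and 107 (9 of 25) in the basal class. The 9 luminal class cells of the range 1 to 55 had a median of 442 CPM.

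Ccnd2 (6:127125162-127152188) was on the basal side. Adult basal cells ranged from 0 to 4026 CPM (median 9.13, read in 42 of 85) and adult luminal cells from 0 to 619 CPM (median 0, read in 4 of 41). The summed level was 249 CPM in basal and 33.7 CPM in luminal cells, 7.40-fold lower in luminal (log2 ratio -2.89, -2.99 to -2.79), and 53.1% of the adult luminal reads came from 1 cell. Of the 4 adult luminal cells with Ccnd2, 3 were among the 6 that carried markers of another type. The same order held in pregnancy, where the basal class had 411 CPM (median 158, highest 4879, read in 39 of 52) and the luminal class 7.68 CPM (highest 70.8, read in 3 of 21), a 53.5-fold difference (log2 ratio -5.74, -6.21 to -5.31). It was present in both ranges, with 516 against 9.01 CPM in cells 1 to 55 and 324 against 7.01 CPM in cells 56 to 123. Without cells that carried markers of another type it was 444 CPM (27 of 36 cells) against 3.31 CPM (1 of 18).

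No adult luminal or luminal class cell had Ccnd2 without Ccnd1, but Ccnd1 was read in most of these cells. If the 2 genes were read independently, 3.61 of 41 adult luminal and 2.29 of 21 luminal class cells would have both, near the counts found. Adult luminal cells had Ccnd1 only in 33 of 41, both in 4 and Ccnd2 only in 0, and luminal class cells had Ccnd1 only in 13 of 21, both in 3 and Ccnd2 only in 0 (8, 1 and 0 of 9 in cells 1 to 55, 5, 2 and 0 of 12 in cells 56 to 123). Adult basal cells were mixed, with both in 23 of 85, Ccnd1 only in 12, Ccnd2 only in 19 and neither in 31. In the basal class of pregnancy 26 of 52 had both, 7 Ccnd1 only and 13 Ccnd2 only. The ranges differed in this, with both in 18, Ccnd1 only in 6 and Ccnd2 only in 2 of 27 cells 1 to 55, and with 8, 1 and 11 of 25 cells 56 to 123. Ccnd3 was low throughout, at 19.5, 30.7, 8.72 and 5.72 CPM in adult basal, adult luminal, basal class and luminal class cells. By range it was at 14.8 and 3.71 CPM in the basal class and at 6.36 and 5.39 CPM in the luminal class. Per length of transcript (RPKM, which is CPM per kilobase), Ccnd1 made up 60.3% of the D cyclin level in adult basal, 88.7% in adult luminal, 41.1% in basal class and 94.9% in luminal class cells. Ccnd2 made up 33.1%, 3.39%, 55.9% and 1.77% on the same scale. In cells 1 to 55 the Ccnd1 shares were 46.0% (basal class) and 97.0% (luminal class), and in cells 56 to 123 they were 32.8% and 91.0%.

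Among the kinases, Cdk4 (10:127063535-127067288) was the one read in most cells. It had a median of 194 CPM (0 to 1035) in adult luminal and 0 CPM (0 to 3925) in adult basal cells, and its summed level of 270 against 85.9 CPM was 3.14-fold higher in luminal (log2 ratio 1.65, 1.59 to 1.71). In pregnancy it was at 79.8 CPM in the basal and 82.6 CPM in the luminal class. By range the luminal class had 134 CPM in cells 1 to 55 and 56.6 CPM in cells 56 to 123, and the basal class 95.3 and 67.0 CPM. The gap between the ranges was wider without cells that carried markers of another type, at 151 against 54.3 CPM in the luminal and 155 against 54.7 CPM in the basal class. Its partner Cdk6 was close to absent, with 50 reads over all adult basal cells, 3 over all adult luminal cells and 18 over all pregnancy cells. Cdk2 was at 22.7 CPM in adult basal, 14.7 in adult luminal and 20.6 in pregnancy cells, where cells 1 to 55 had 40.2 and cells 56 to 123 had 8.56 CPM. Cyclin E was rare. Ccne1 was read in 3 adult basal and 1 adult luminal cell, and Ccne2 in 2 and 6 cells, with 6.05 and 27.1 CPM. E2f1, itself an E2F target, had 0 reads in adult basal, 1 in adult luminal and 40 in pregnancy cells, of which 21 were in cells 1 to 55 and 19 came from pregnancy cell 85.

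Among the inhibitors, Cdkn1a (17:29090979-29100722) was the most widespread, read in 63 of 85 adult basal cells (median 146 CPM, 0 to 2284) and 24 of 41 adult luminal cells (median 41.2, 0 to 1631). Its summed level was 298 CPM in basal and 167 CPM in luminal cells, a log2 ratio of -0.83 (-0.89 to -0.78) that fell short of the 2-fold rule and passed it with TMM scaling (-1.10) or without the cells of other types (-1.44). In pregnancy it was at 172 CPM in the basal and 53.8 CPM in the luminal class (log2 ratio -1.68, -1.86 to -1.50), with 277 against 111 CPM in cells 1 to 55 and 85.9 against 24.5 CPM in cells 56 to 123. Cdkn1b (p27) was higher in adult luminal cells, with 25.5 CPM (18 of 41 cells, highest 297) against 4.28 CPM (9 of 85, highest 111), or 5.96-fold (log2 ratio 2.58, 2.32 to 2.84). In pregnancy the pooled levels of 9.46 CPM (basal class) and 9.65 CPM (luminal class) stood for opposite orders of summed CPM in the ranges. In cells 1 to 55 the luminal class was above the basal class, at 21.7 against 9.67 CPM (log2 ratio 1.17, 0.53 to 1.80, and 0.89 without the leading cells, short of the rule). In cells 56 to 123 it was below, at 3.51 against 9.28 CPM (-1.40, -2.40 to -0.51), from 13 and 55 reads. Detection differed less. Without cells of other types, Cdkn1b was read in 3 of 8 luminal class and 5 of 13 basal class cells 1 to 55. In cells 56 to 123 the counts were 2 of 10 and 5 of 23.

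Cdkn1c (7:143458339-143461059), an imprinted gene, was on the basal side. Adult basal cells had 63.8 CPM (12 of 85 cells, median 0, highest 1279) and adult luminal cells 7.61 CPM (4 of 41, highest 80.9), 8.38-fold less (log2 ratio -3.07, -3.29 to -2.85). The basal class of pregnancy had 141 CPM (26 of 52 cells) and the luminal class 20.7 CPM (3 of 21). The order was the same in both ranges, at 218 against 33.4 CPM in cells 1 to 55 and 77.3 against 14.3 CPM in cells 56 to 123, where pregnancy cell 98 held 48.7% of the basal class reads (42.7 CPM without it). Cells with markers of another type weighed on this gene. All 3 luminal class cells with Cdkn1c were of that kind and 0 of the 18 others had it, and in the basal class it was at 255 CPM in the 16 such cells and at 90.7 CPM in the other 36. Without them, the basal class over adult basal log2 ratio went from 1.14 to 0.49. Cdkn2c was rare, read in 2 adult basal, 3 adult luminal, 8 basal class and 3 luminal class cells. By range the basal class had 13.2 and 29.7 CPM, and the 8 reads of the luminal class were all in cells 1 to 55.

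**Figure D3:**
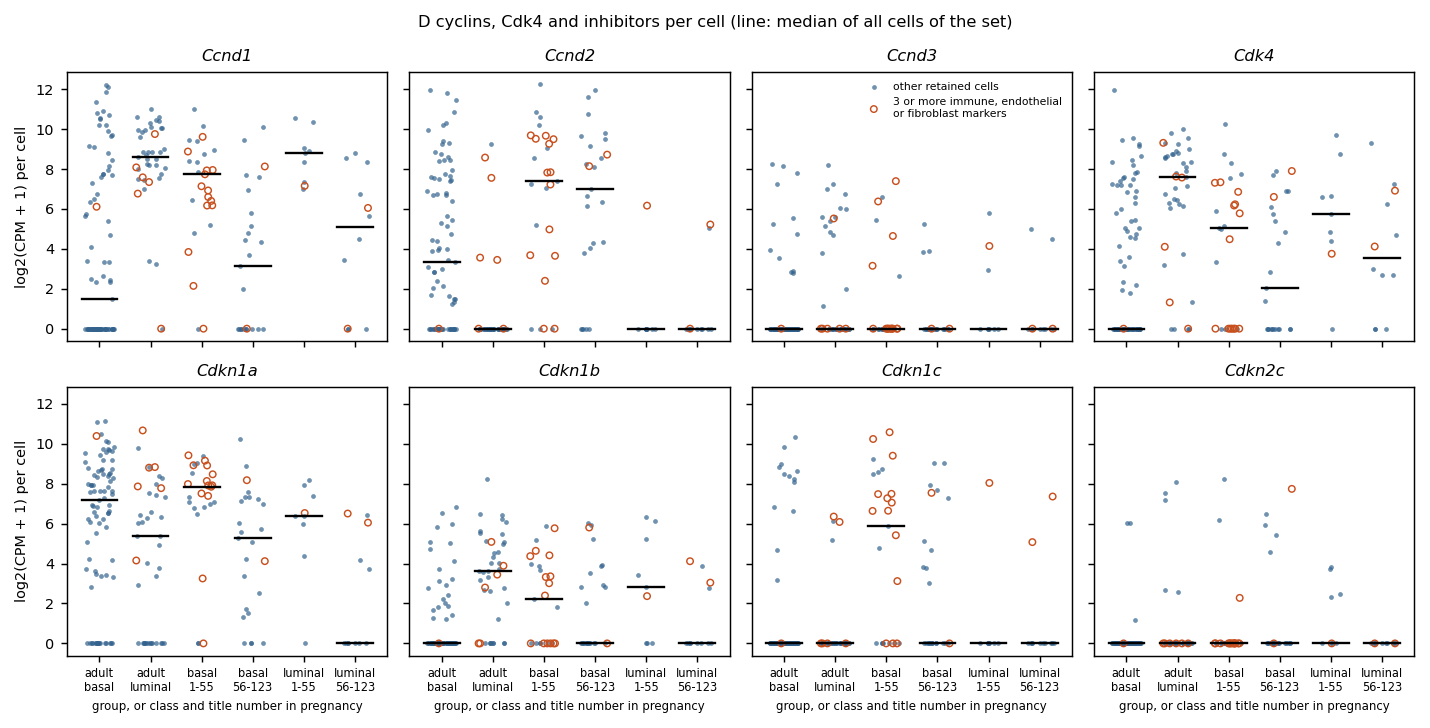
Level of the D cyclins, Cdk4 and the 4 inhibitors in each cell, as log2(CPM + 1) on the vertical axis, for the adult sorts and for the basal and luminal class of pregnancy in each title range; black lines are medians over all cells of the set and open circles are cells with 3 or more immune, endothelial or fibroblast markers. Ccnd2 is at 0 in nearly all luminal cells, and the only luminal class cells with Cdkn1c are open circles.

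The S phase genes with the largest ratios between the adult sorts were Rrm2, Uhrf1 and Tyms. Rrm2 (12:24708254-24714146) was at 180 CPM in adult luminal cells (8 of 41 cells, highest 2085) and 10.9 CPM in adult basal cells (2 of 85, highest 274), 16.5-fold higher in luminal (log2 ratio 4.04, 3.89 to 4.19). Uhrf1 followed with 172 against 17.1 CPM (log2 ratio 3.33) and the thymidylate synthase gene Tyms with 58.9 against 7.39 CPM (2.99). In adult basal cells 51.8% of the Rrm2 reads were in cell 78 and 51.7% of the Uhrf1 reads in cell 109, and without them the levels were 5.37 and 8.30 CPM. Other enzymes differed less: Rrm1 was at 153 against 75.1 CPM (log2 ratio 1.02, and 0.87 without the leading cells, so it was not past the rule) and the dUTPase gene Dut at 36.0 against 23.4 CPM (0.62). Of the helicase subunits, Mcm6 (84.2 against 20.0 CPM, log2 ratio 2.07) and Mcm5 (76.4 against 29.3 CPM, 1.38) were past the 2-fold rule. Mcm4 was lower on the luminal side, with 70.5 against 102 CPM (log2 ratio -0.53), and was read in 21 of 85 adult basal cells and 12 of 41 adult luminal cells. Pcna hardly differed (101 against 106 CPM, log2 ratio -0.07, -0.14 to 0.01). Mcm2 had 97.7% of its adult basal reads in 1 cell.

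Most G2/M genes in adult basal cells rested on adult basal cell 36. It held all adult basal reads of Ccnb1, 95.5% of those of Cdk1 and 90.9% of those of Top2a. Other cells led for Bub1 (cell 67, 51.8% of 494 reads), Cenpa (cell 93, 61.0% of 816), Birc5 (cell 20, 58.8% of 148) and Aurka (1 read, in cell 74). Top2a (11:98992947-99024199) was at 314 CPM in adult luminal cells (12 of 41, highest 3326) and 56.1 CPM in adult basal cells (6 of 85, highest 2306), a log2 ratio of 2.48 (2.41 to 2.56). Mki67 was at 119 and 31.5 CPM (log2 ratio 1.92), Cdk1 at 103 and 17.5 CPM (2.55) and Ccnb1 at 48.7 and 3.61 CPM (3.75). Without cell 36 the adult basal levels were 5.21 CPM for Top2a, 6.67 for Mki67, 0.802 for Cdk1 and 0 for Ccnb1. Bub1 was at 38.9 and 13.8 CPM (1.49), and its ratio fell to -0.02 without the leading cell on each side. Ccnb2 was at 33.0 CPM in adult luminal cells (read in 8) and 0.448 CPM in adult basal cells (log2 ratio 6.20, 5.49 to 7.02). The Aurora and Polo kinase genes Aurkb, Plk1 and Aurka had 0 or 1 read in adult basal cells. Aurkb had 0 adult basal and 479 adult luminal reads (at least 230-fold higher in luminal, with 3 counts over all basal cells as the floor). Plk1 had 0 and 533 (at least 256-fold), and Aurka 1 and 803 (interval of the log2 ratio 7.69 to 15.5). These genes were read in only 10 (Aurkb), 9 (Plk1) and 11 (Aurka) of the 35 G2/M cells of all groups. Adult basal cells held 1 such cell. Most of the luminal reads came from 1 cell for Aurkb (71.6%) and for Plk1 (63.4%).

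Over all 50 genes, 27 were higher and 3 lower in adult luminal than in adult basal cells. A gene was counted where its summed CPM differed at least 2-fold with all cells and again after the cell with most reads of that gene was left out on each side. By this rule 27.2% of the 15312 genes were higher and 16.3% lower, and the median log2 ratio was 1.38 for the 50 genes and 0.32 for all genes. The higher genes were 16 of 22 G2/M genes (median log2 ratio 2.29), 5 of 13 S phase genes (0.95), Cdk4 and Ccne2, Cdkn1b and Cdkn2c, and Hmgb2 and Stmn1. The lower genes were Ccnd2, Ccne1 and Cdkn1c. No G2/M or S phase gene was lower. With adult basal cell 36 left out, 36 genes were higher and 3 lower. It was the only G2/M cell of its sort, so leaving it out lowers the adult basal G2/M levels. Shares of all genes were not counted in that setting.

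From adult basal cells to the basal class of pregnancy, 24 of the 50 genes were higher and 0 lower (25.9% and 14.3% of all genes, median log2 ratio 0.92 against -0.01). G2/M genes made up 17 of the 24 (of 22, median 2.33), with Mki67 at 157 against 31.5 CPM, Top2a at 223 against 56.1 CPM and the checkpoint kinase Bub1b at 28.0 against 0.140 CPM. The others were the S phase genes Rrm2, Uhrf1 and Tyms, the inhibitors Cdkn1b, Cdkn1c and Cdkn2c, and E2f1 (9 reads against 0). Markers of another type were carried by 16 of the 52 basal class cells and 1 of the 85 adult basal cells. Without these cells 24 genes were higher and 3 lower, and shares of all genes were not counted. Cdkn1b (log2 ratio 1.02) and Cdkn1c (0.49) were then no longer past the rule, and neither were Aurka and Bub1, while Ccnd3 (-1.57), Cdkn1a (-1.19) and Mcm4 (-1.19) were lower. The ranges were far apart. Against adult basal cells, basal class cells 1 to 55 had 34 genes higher and 0 lower (27.7% and 13% of all genes), with 21 of 22 G2/M genes higher. Basal class cells 56 to 123 had 8 higher and 11 lower (16.7% and 24.4%), among them 6 G2/M genes higher and 1 lower and 5 S phase genes lower. Mki67 was at 328 CPM (14 of 27 cells) in the first range and 17.4 CPM (4 of 25) in the other, Top2a at 394 and 83.4 CPM. In the second range pregnancy cell 98 held 61.2% of the Mki67 reads and pregnancy cell 99 held 43.3% of the Top2a reads, and without them the levels were 7.27 and 53.2 CPM. The adult basal Mki67 level was 31.5 CPM with adult basal cell 36 and 6.67 CPM without it, so the order of the second range and adult basal cells turned on that cell.

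From adult luminal cells to the luminal class of pregnancy, 3 genes were higher and 27 lower (13.2% and 30.5% of all genes, median log2 ratio -1.18 against -0.72). The lower genes included 13 of 22 G2/M genes, 5 of 13 S phase genes, Ccnd1 (271 against 580 CPM, log2 ratio -1.10), Ccnd3 and Cdk4 (82.6 against 270 CPM, -1.71), and Cdkn1a and Cdkn1b. The higher ones rested on few reads: Ccne1 (75 reads against 153), Cdk6 (4 against 3) and E2f1 (20 against 1). This comparison moved with the scaling. With milk genes left out of the totals, 6 were higher and 14 lower, and shares of all genes were not counted. With TMM scaling 6 were higher and 10 lower, beside 19% and 19.6% of all genes under that scaling. With TMM scaling Ccnd1 (-0.50), Cdkn1b (-0.81) and Cdkn1a (-1.04) were among the genes no longer past the rule, Ccnd3 (-1.83) and Cdk4 (-1.11) stayed lower, and Cdkn1c (2.04), read only in luminal class cells with markers of another type, was higher. TMM shifted the median of all genes by 0.60 and leaving out milk genes by 0.47 in this comparison. The same shifts were -0.26 and 0.02 for the adult sorts, 0.07 and 0.21 for the basal class over adult basal, and 0.26 and 0.28 for the pregnancy classes. The luminal class was also another mixture than the adult sort, with 10 mature luminal markers summing to 529 CPM against 9065 CPM. By range, luminal class cells 1 to 55 had 3 higher and 13 lower (16.5% and 22.7% of all genes), and cells 56 to 123 had 2 higher and 38 lower (10.8% and 37.9%). In the first range Top2a was at 186 CPM (5 of 9 cells) and Mki67 at 152 CPM (5 of 9, and 93.1 CPM without pregnancy cell 51). Ccnb2 and Kif11 lay above the adult luminal level there with log2 ratios of 0.45 and 0.37, short of the 2-fold rule. Each rested on 1 cell, since without pregnancy cell 51 Ccnb2 was at 28.0 CPM (adult luminal 33.0) and without pregnancy cell 40 Kif11 was at 10.9 CPM (adult luminal 41.8).

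Between the pregnancy classes, 2 genes were higher and 16 lower in the luminal than in the basal class (10.5% and 24.8% of all genes, median log2 ratio -0.62 against -0.38). The lower genes were 11 of 22 G2/M genes, led by Cenpa, the centromeric histone (3.04 against 39.1 CPM, with 37.4% of the basal class reads in pregnancy cell 6), and Cenpf (10.2 against 98.9 CPM), besides Ccnd2, Cdkn1a, Cdkn1c, Cdkn2c and Mcm5. Mki67 was at 151 against 157 CPM (log2 ratio -0.06, -0.18 to 0.06) and Cdk1 at 34.8 against 26.2 CPM, but pregnancy cell 85 held 57.0% and 54.9% of the luminal class reads. Without it the luminal class was at 71.3 CPM for Mki67 and 17.3 CPM for Cdk1, both below the basal class. By range Mki67 was lower in the luminal class in cells 1 to 55 (152 against 328 CPM) and higher in cells 56 to 123 (150 against 17.4 CPM, or 23.7 CPM without cell 85). The higher genes had few reads, Mcm2 with 13 against 2 and E2f1 with 20 against 9. In cells 1 to 55 the counts were 1 higher and 16 lower (14.5% and 19.9% of all genes), and in cells 56 to 123 they were 4 and 10 (10.2% and 20%). Ccnd2 and Cdkn1a were lower in the luminal class in both ranges. These comparisons share the adult and pregnancy cells with each other and are not independent.

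**Figure D4:**
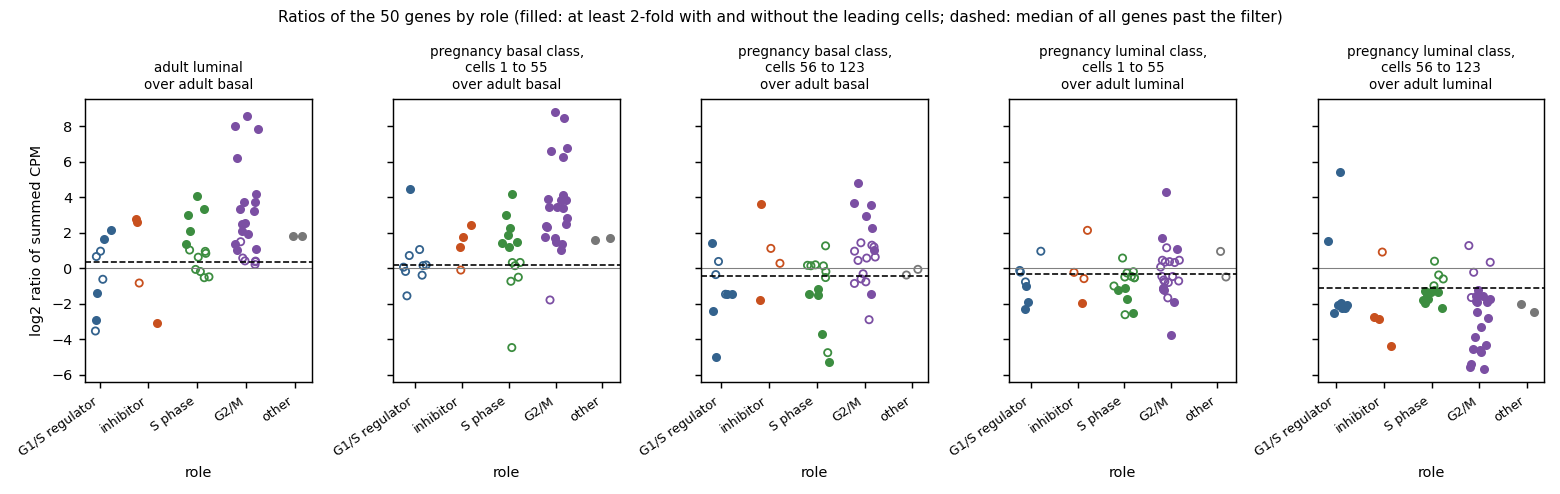
Log2 ratio of summed CPM (vertical axis) of the 50 genes, grouped by role, in 5 comparisons; filled points are at least 2-fold with all cells and after the leading cells were left out, the dashed line is the median of all genes that passed the filter, and genes with 3 or fewer reads on each side are not drawn. G2/M genes other than Cdc20 lie above the dashed line in adult luminal over adult basal and in basal class cells 1 to 55 over adult basal, and mostly below it in luminal class cells 56 to 123 over adult luminal.

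The ranges of pregnancy cells differed across the roles. In cells 1 to 55, 41 of the 50 genes were higher and 0 lower than in cells 56 to 123, against 32.6% and 5.07% of all genes (median log2 ratio 2.14 against 0.77). The 41 held 21 of 22 G2/M genes, 11 of 13 S phase genes, 5 G1/S regulators, Cdkn1a and Cdkn1c, Hmgb2 and Stmn1. Mki67 was at 263 CPM (26 of 45 cells, highest 2328) against 46.0 CPM (7 of 51, highest 953), and Top2a at 362 against 61.3 CPM. In cells 56 to 123 pregnancy cell 85 held 72.9% of the Mki67 and 43.7% of the Top2a reads, and without it the levels were 12.9 and 35.8 CPM. Aurkb had 169 reads against 0 (at least 91.6-fold) and Plk1 85 against 0 (at least 46.1-fold). Cdk4 (92.0 against 62.6 CPM), Cdkn1b (14.2 against 9.40 CPM), Cdkn2c, Pcna (87.1 against 53.9 CPM), Mcm3, Ccnb1, Ccne2, Ccnd2 and E2f1 were not past the rule. Cells of other types (18 of 45 against 5 of 51), milk genes (8.89% against 31.4% of reads) and genes detected moved with the ranges, and their part in these ratios was not tested.

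**Figure D5:**
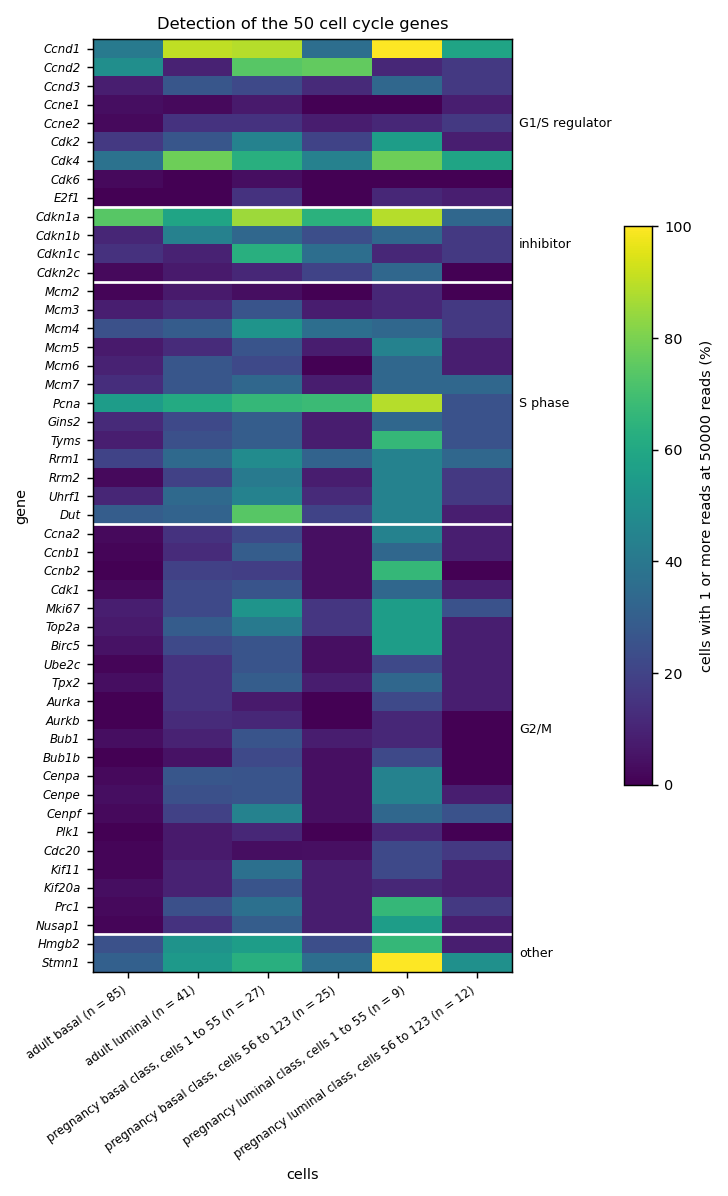
Share of cells (colour, %) with 1 or more reads of each of the 50 genes at 50000 reads, with genes in rows by role and in columns the adult sorts and the pregnancy classes in each title range. Ccnd2 is dark in the luminal columns (4 of 41 adult luminal cells) and brighter in the basal ones, Ccnd1 is read in 24 of 27 basal class and 9 of 9 luminal class cells 1 to 55, and the G2/M block is brightest in pregnancy cells 1 to 55.

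Other genes of the cell cycle were counted by the same rule. Of 158 further genes listed by name, 156 were matched and 153 passed the filter. In adult luminal over adult basal cells, 78 were higher and 10 lower (27.2% and 16.3% of all genes), with 39 of 65 other G2/M genes and 26 of 54 other S phase genes among the higher (median log2 ratios 1.62 and 0.93). Those with the largest ratios were the mitotic kinase Pbk (79.0 against 0.140 CPM, log2 ratio 9.14) and the chromokinesin Kif22 (34.7 against 0 CPM, at least 413-fold), and in the other direction the kinesin Kif18a (2.34 against 56.7 CPM, -4.60) and the pocket protein Rbl2 (9.67 against 54.1 CPM, -2.49). Rbl2 represses E2F targets in resting cells. In the basal class over adult basal cells 69 were higher and 10 lower (25.9% and 14.3% of all genes), led by Melk (39.3 against 0 CPM, at least 468-fold) and Pbk (36.2 against 0.140 CPM), with Kif18a and E2f6 lowest. In the luminal class over adult luminal cells 5 were higher (Fen1 and Ncapg with the largest ratios) and 73 lower (13.2% and 30.5% of all genes), with the kinetochore gene Nuf2 (0.715 against 37.7 CPM) and Orc5 of the origin recognition complex (1.79 against 46.4 CPM) lowest. Between the pregnancy classes 14 were higher, with E2f4 and the replication licensing inhibitor Gmnn first, and 58 lower (10.5% and 24.8% of all genes), with Nuf2 and Orc5 again lowest. In cells 1 to 55 over cells 56 to 123, 104 were higher and 5 lower (32.6% and 5.07% of all genes), with the phosphatase Cdc25c (48.0 against 0 CPM, at least 230-fold) highest and Orc5 (16.9 against 72.5 CPM, log2 ratio -2.10) lowest. By range, the counts against the adult sorts were 79 higher and 10 lower in basal class cells 1 to 55 (27.7% and 13% of all genes) and 41 and 35 in basal class cells 56 to 123 (16.7% and 24.4%). They were 15 and 43 in luminal class cells 1 to 55 (16.5% and 22.7%) and 2 and 98 in luminal class cells 56 to 123 (10.8% and 37.9%).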

How the data were processed

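The data are RNA-seq counts of 278 single cells on the Fluidigm C1 platform (Nextera XT libraries, NextSeq 500). The authors aligned read pairs to mm10 with Subread (1.4.6 per the labels) and assigned them to RefSeq genes with featureCounts. The deposited values are raw counts (assigned read pairs for each Entrez gene and cell), with no normalisation and no molecular identifiers. Whether counting used strand is not given in the sources used here. Groups were taken from the cell titles. The 50 genes, the role lists, the other cell cycle genes, the classes, the title ranges and the fold rule were chosen with earlier results of these data known.

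Gene identifiers were named with the RefSeq table of GRCm38.p6 (25275 of 27179). The 1904 without a name (1.20% of reads), 15 mitochondrial genes (9.54%) and 125 ribosomal protein genes (1.72%) were left out, which left 25135 genes. Ratios used counts summed over the cells of a group, as CPM. Where a side had fewer than 3 counts, 3 were used, and no ratio was given where both sides had 3 or fewer. Detection used cells thinned to 50000 reads without replacement. Pregnancy classes came from the study's 200 basal and 200 luminal genes (196 and 189 matched, milk genes and the 50 genes left out), with thresholds at the 10th percentile of adult cells that passed the study's minimums. All 50 genes may be named, and of the other cell cycle genes the 2 with the largest ratio in each direction among those past the rule that reached 20 CPM on the higher side. No doublet caller was run. The authors inspected capture sites by microscope. Identical files were found in 0 pairs of cells, and no pair correlated above 0.694 (log2 CPM). The fold rule was tried on simulated counts of 15312 genes for adult luminal over adult basal cells. Among genes at 20 CPM or more over all retained cells, it recovered 100% of 200 changed 8-fold and called 5.67% of the unchanged ones. Noise was drawn independently for each gene and cell. These rates therefore do not cover genes at lower levels, smaller changes or genes that rise together in the same few cells. Alternatives were no thinning, other gene and read minimums, other cells retained, TMM scaling (edgeR 4.0.16 in R 4.3.3), milk genes left out, equal weight of cells and a 4-fold rule. Leaving out cells of other types or adult basal cell 36, the title ranges and other class thresholds were added after seeing the data. Python 3.11.15, numpy 2.4.6, pandas 2.3.3, scipy 1.17.1 and matplotlib 3.10.9 were used.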

Additional observations from a re-analysis of the deposited data

Results flagged for a closer look

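Cells with fewer than 50000 reads were left out of all comparisons. Of the 27 pregnancy cells left out, 1 had reads of 5 or more G2/M genes, and the highest number in such a cell was 7, above the highest numbers in the adult cells left out (4 among 27 adult basal and 1 among 2 adult luminal cells). It was listed because it shows a signal in cells that no comparison used. The 27 pregnancy cells left out had a median of 7209 reads.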

How the results depend on the processing

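Each group is 1 sample, so these values show how counts and shares move with the processing and not how they would vary between animals. No paired analysis was possible because no cell is matched to another by the labels. At 50000 reads a gene with few transcripts is missed in many cells, which limits shares of cells more than sums.

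Shares of S cells moved most. Without thinning they were 18.8% (adult basal) and 43.9% (adult luminal), with 5 or more reads as detection 12.5% (pregnancy), with 3 or more genes required 29.4% (adult basal) and 51.0% (pregnancy), and with 8 or more genes 2.35%, 12.2% and 16.7% (adult basal, adult luminal, pregnancy). In pregnancy cells 1 to 55 and 56 to 123 the S shares were 60% and 7.84% and the G2/M shares 55.6% and 3.92%. Without adult basal cell 36 the adult basal G2/M share was 0%.

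Counts of genes past the rule moved as follows. Shares of all genes were counted only with TMM scaling and in the title ranges. In the luminal class over adult luminal cells they were 6 higher and 10 lower with TMM scaling, 6 and 14 with milk genes left out, 6 higher when no leading cell was left out, 7 lower under a 4-fold rule and 13 lower in cells 1 to 55. In the basal class over adult basal cells 1 was lower with equal weight of cells, 4 when no leading cell was left out, 3 without cells of other types and 2 with class thresholds from all retained adult cells. There 15 were higher under a 4-fold rule, and 8 were higher and 11 lower in cells 56 to 123. In the luminal over the basal class 0 were higher and 7 lower under a 4-fold rule, 1 was higher without cells of other types and in cells 1 to 55, 4 were higher and 10 lower in cells 56 to 123, and 27 were lower with class thresholds from all retained adult cells. In adult luminal over adult basal cells 5 were lower with equal weight of cells. The cause was not tested.

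Single genes changed direction in some settings. In cells 1 to 55, log2 ratios became -0.22 for Ccne1, 0.45 for Ccnb2 and 0.37 for Kif11 (luminal class over adult luminal) and -0.22 for E2f1 (luminal over basal class). In cells 56 to 123 they became -0.19 for Uhrf1, -0.86 for Mki67 and -1.43 for Kif20a (basal class over adult basal) and 0.58 for Mcm5 and 0.82 for Kif20a (luminal over basal class). The negative values for Mki67 and Kif20a rested on adult basal cell 36, without which adult basal cells were at 6.67 and 1.32 CPM, beside 17.4 and 3.21 CPM in basal class cells 56 to 123. Without adult basal cell 109, Uhrf1 was at 8.30 CPM beside 15.0 CPM. With class thresholds from all retained adult cells Aurkb became 0.75 (luminal over basal class). Of the 102 single calls, 102 kept their call under the study's minimums of reads and genes, 90 with equal weight, 85 with milk genes left out and 79 with TMM scaling, and 89 of 101 without cells of other types. Of those that involve pregnancy, 65 of 72 kept their call with class thresholds from all retained adult cells, 45 of 69 in cells 1 to 55 and 41 of 65 in cells 56 to 123.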
